A study of Mus musculus with 10 samples.

Results

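Txk and Tec, 2 kinases of the Tec family, were measured in regulatory T cells of the mouse spleen together with Rasgrp1, Rasgrp2, Rasa2, Rasa3, Prkd2, Prkd3 and Sgk3, which act on the small GTPases Ras and Rap1 or on kinase branches beside them. These 9 genes were taken by symbol from the probe table out of 19938 genes, each had 1 probe set, and none was lost to a filter on low values. The arrays held CD4+ cells sorted by a red fluorescent reporter at Foxp3, from female C57BL/6 mice of 9 to 14 weeks, and every group carried the reporter. FR3 Klrg1+ cells were CD62Llo CD69+ Klrg1+ (1 array), FR3 Klrg1- cells were CD62Llo CD69+ Klrg1- (4 arrays), FR2 cells were CD62Llo CD69- Klrg1- (2 arrays) and FR1 cells were CD62Lhi CD69- Klrg1- (2 arrays). Another array carried the FR3 name with the marker text of FR1, and was placed in no group. CD62L is a homing receptor of lymph nodes, CD69 an activation marker, and Klrg1 a receptor of differentiated lymphocytes.

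The engaged T cell receptor acts through Lck, ZAP-70 and the Tec kinases on phospholipase C-gamma, which releases calcium and diacylglycerol. Diacylglycerol recruits Rasgrp1, an exchange factor of the RasGRP family that loads Ras with GTP, and it activates protein kinase C and protein kinase D. Rasgrp2 of the same family loads Rap1. GTPase activating proteins such as Rasa2 and Rasa3 return the GTPases to their inactive state. In regulatory T cells, signals of the T cell receptor are known to be needed for the effector state.

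The arrays fell into 2 sets, so groups were compared within a set. In the first were the FR1 and FR2 arrays with replicates 1 and 2 of FR3 Klrg1-. The second had replicates 3 and 4 of FR3 Klrg1-, the only FR3 Klrg1+ array, and the array without a group. Arrays of unlike groups shared a correlation over genes of 0.98 to 0.99 within a set, while FR3 Klrg1- pairs that crossed the sets reached 0.94 to 0.946. Foxp3 stood between 9.63 and 10.93 and Cd4 between 9.86 and 11.65 on every array (RMA, log2 intensity), and both were lower on each array of the second set than on any of the first. Klrg1 was at 12.33 on the FR3 Klrg1+ array, against 6.54 to 7.47 on the FR3 Klrg1- arrays. Cd69 RNA did not follow the gate, which is set on surface protein. It was at 12.02 and 12.16 in FR3 Klrg1- of the first set. That was within the 11.86 to 12.41 of FR2 and FR1, which were sorted as CD69-. On each array of the second set Cd69 was lower still, at 9.73 to 10.24. Of the marker lists, T cell markers averaged 10.59 to 11.25 on the arrays (9 genes measured), against 5.68 to 5.97 for markers of platelets (9 genes) and 5.36 to 5.59 for markers of B cells (9 genes), 2 sources in which some of the 9 genes are also expressed. RMA gives no zero, and 3 of the 9 platelet markers and 4 or 5 of the 9 B cell markers lay below percentile 25 of the genes on every array of each group. CD8 T cell markers (2 genes) averaged 6.62 to 6.68 in FR3 Klrg1- of the first set, 6.75 to 6.88 in FR2 and 6.99 to 7.19 in FR1, with 1 of 2 lower past the threshold in FR3 Klrg1- against FR1. Also past it in that comparison, 1 platelet marker was lower, 1 B cell marker higher and 1 lower, and 2 T cell markers higher. Of the natural killer cell markers (7 genes, averages of 4.56 to 4.92), 1 was higher and 1 lower. The other marker lists had none past it there. The part of other cells in the results below was not tested. In sorted pools, fewer cells with a transcript and less transcript per cell cannot be told apart.

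Each value below is the RMA log2 intensity of a probe set, where a difference of 1 is a doubling, and levels of different genes are not compared. The 9 genes were chosen with their differences between these groups known, among them large drops of Rasgrp2, Prkd3, Sgk3 and Rasa3 from FR1 to FR3 Klrg1-. Their values are therefore a description with no test. Differences are given with the standard error of the limma fit.

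The promoters of the Tec kinase pair are shown because the genes are neighbours and their levels differed in pattern, with large differences for Txk and small ones for Tec. Txk and Tec follow each other on mouse chromosome 5 in GRCm38.p6, with no other annotated gene between their starts. The windows below hold 250 bases before and 50 after a RefSeq gene start (GRCm38.p6, minus strand, 5′ to 3′), with each CG dinucleotide in capitals. Txk lies at chr5:72752728-72753027 and Tec at chr5:72868399-72868698.
Txk: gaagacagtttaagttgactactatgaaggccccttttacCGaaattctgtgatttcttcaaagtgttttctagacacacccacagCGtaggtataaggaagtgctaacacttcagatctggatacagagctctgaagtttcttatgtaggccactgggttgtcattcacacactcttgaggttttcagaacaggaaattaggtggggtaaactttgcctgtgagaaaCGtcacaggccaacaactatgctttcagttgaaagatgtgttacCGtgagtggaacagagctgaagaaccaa
Tec: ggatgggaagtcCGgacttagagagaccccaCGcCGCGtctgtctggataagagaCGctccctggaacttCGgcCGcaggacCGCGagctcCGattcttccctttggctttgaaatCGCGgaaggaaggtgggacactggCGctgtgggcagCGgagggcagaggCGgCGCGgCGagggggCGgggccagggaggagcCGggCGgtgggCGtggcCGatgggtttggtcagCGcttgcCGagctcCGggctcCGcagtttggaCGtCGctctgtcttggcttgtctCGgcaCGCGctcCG

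The Txk window held 4 CG dinucleotides and was 42.7% G and C. The Tec window held 33 and was 67.7% G and C, against a median of 7 and 52.7% over 32851 such windows. Of all windows, 38% had as few as Txk or fewer, and 8.56% had as many as Tec or more. A second annotated start of Txk, at chr5:72736553-72736852, had 4 as well. Of the other genes, Prkd3 held 45 and 2 in its windows, Rasgrp2 40 and 23, and Rasa3 26. Prkd2 held 21 in each of its windows, Rasgrp1 26 and Rasa2 32. A relation of CG counts to the differences was not tested. Windows were found for 8 of the 9 genes, all but Sgk3, and 4 motifs were searched on both strands. GTAAACA, a forkhead core, was in 0 of the 12 windows of these genes and in 3.65% of all windows. CCGGAA, an ETS core, was in a Rasgrp2 window (14.9% of all windows), GGGTGTG, a KLF core, in the Txk window printed above (7.95%), and CAGGTG, an E box, in the Rasgrp1 window (20.2%). None of these motifs was shared by windows of 2 of the genes.

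The Tec kinases diverged. Txk, also called Rlk, is a Tec kinase of T cells and natural killer cells that is anchored by palmitoylation where its relatives have a lipid-binding domain. It stood at 8.40 and 8.12 on the FR3 Klrg1- arrays of the first set, against 9.55 and 9.75 in FR2 and 10.47 and 10.44 in FR1. The 3 groups did not overlap, and the difference of FR3 Klrg1- from FR1 was -2.19 ± 0.14 (SE, n = 2 and 2), a 4.56-fold lower level. On the second set, Txk was at 7.03 on the FR3 Klrg1+ array, against 8.32 and 8.16 in FR3 Klrg1-, a difference of -1.20 ± 0.17 (n = 1 and 2).

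Tec, a family member found across blood cells, stood at 6.86 and 6.91 in FR3 Klrg1-, against 6.66 and 6.62 in FR2 and 6.50 and 6.72 in FR1. FR2 and FR1 overlapped, and FR3 Klrg1- was above both by little, at 0.27 ± 0.13 over FR1. In the second set it was at 8.22 in FR3 Klrg1+, against 7.83 and 7.85 in FR3 Klrg1- (0.38 ± 0.16). For Tec the gap between the sets was wider than any gap between groups: its FR3 Klrg1- mean was 6.88 in the first set and 7.84 in the second. For Txk these means were 8.26 and 8.24.

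**Figure D1:**
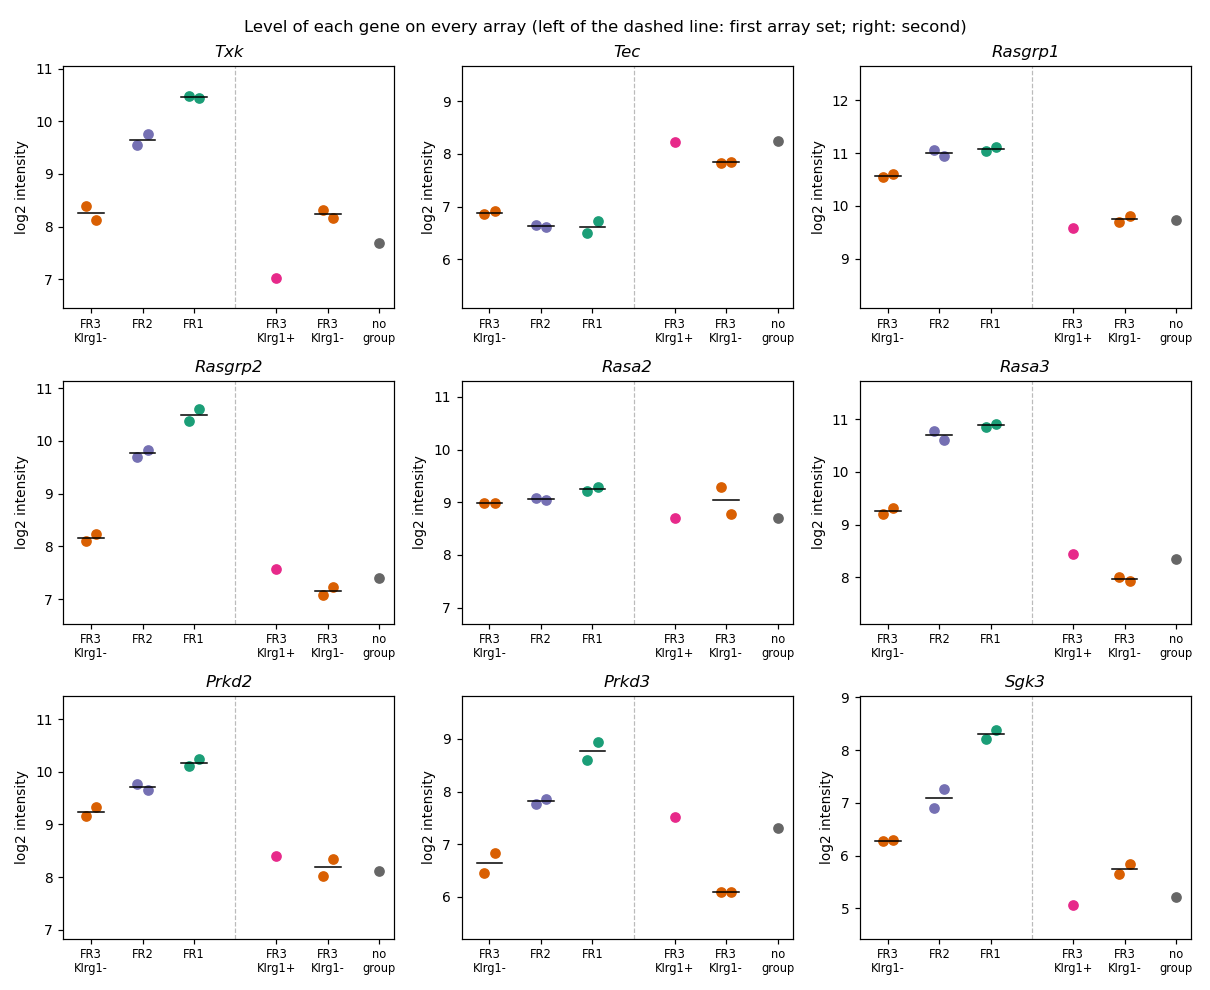
RMA log2 intensity of each of the 9 genes on every array, with a point per array and a line at the mean of groups with 2 arrays in a set; every panel spans the same range of log2 units. Left of the dashed line (FR3 Klrg1-, FR2, FR1), all genes but Tec and Rasgrp1 form steps without overlap, and right of it (FR3 Klrg1+, FR3 Klrg1-, the array in no group) Prkd3 is at 7.52 in FR3 Klrg1+ against 6.09 and 6.10 in FR3 Klrg1-.

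Of the exchange factors, Rasgrp2 changed more than Rasgrp1. Rasgrp2, also called CalDAG-GEFI, loads Rap1 and is known for activating integrins in platelets and leukocytes. It stood at 8.10 and 8.23 in FR3 Klrg1-, against 9.69 and 9.83 in FR2 and 10.37 and 10.60 in FR1. The groups did not overlap, and FR3 Klrg1- differed from FR1 by -2.32 ± 0.14, a 4.99-fold lower level and the largest difference of the 9 genes in the first set. In the second set it was at 7.57 in FR3 Klrg1+, against 7.07 and 7.23 in FR3 Klrg1- (0.42 ± 0.17). That direction turned in a fit without the array set (-0.08), which takes FR3 Klrg1- as the mean over both sets.

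Rasgrp1, the main Ras exchange factor of developing T cells, stood at 10.54 and 10.60 in FR3 Klrg1-, against 11.06 and 10.95 in FR2 and 11.05 and 11.12 in FR1. FR2 and FR1 overlapped, and FR3 Klrg1- was below both, with a difference from FR1 of -0.52 ± 0.13. It was at 9.59 in FR3 Klrg1+, against 9.70 and 9.80 in FR3 Klrg1- of the second set, a difference of -0.16 ± 0.15 that is about its error.

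Of the GTPase activating proteins, Rasa3 was lower and Rasa2 nearly level. Rasa3 acts on both Ras and Rap1 and is known to restrain Rap1 in platelets. It stood at 9.21 and 9.31 in FR3 Klrg1-, against 10.78 and 10.61 in FR2 and 10.86 and 10.91 in FR1. FR2 differed from FR1 by -0.19 ± 0.13 and FR3 Klrg1- from FR2 by -1.43 ± 0.13, so 11.8% of the whole difference lay between FR2 and FR1. Rasa3 of the second set was at 8.44 in FR3 Klrg1+, against 8.01 and 7.94 in FR3 Klrg1- (0.47 ± 0.16, and -0.18 without the array set).

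Rasa2, a Ras GTPase activating protein of the same subfamily, stood at 8.98 and 8.99 in FR3 Klrg1-, against 9.09 and 9.05 in FR2 and 9.22 and 9.29 in FR1. The groups did not overlap, but FR3 Klrg1- differed from FR1 by -0.27 ± 0.16 only. It was at 8.71 in FR3 Klrg1+, against 9.29 and 8.78 in FR3 Klrg1- of the second set, whose 2 arrays spanned more than all 6 arrays of the first.

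Both protein kinase D genes were lower in FR3 Klrg1- than in FR1. Prkd2, the main form in T cells, stood at 9.16 and 9.33 in FR3 Klrg1-, against 9.76 and 9.65 in FR2 and 10.11 and 10.24 in FR1. Its difference of FR3 Klrg1- from FR1 was -0.93 ± 0.14, with about equal parts between FR2 and FR1 (-0.47) and between FR3 Klrg1- and FR2 (-0.46). Prkd2 was at 8.40 in FR3 Klrg1+, against 8.03 and 8.34 in FR3 Klrg1- (0.21 ± 0.17, and -0.32 without the array set).

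Prkd3, a second member of the family, stood at 6.45 and 6.83 in FR3 Klrg1-, against 7.77 and 7.86 in FR2 and 8.59 and 8.93 in FR1. FR3 Klrg1- differed from FR1 by -2.12 ± 0.15, a 4.35-fold lower level. In the second set it was at 7.52 in FR3 Klrg1+, against 6.09 and 6.10 in FR3 Klrg1-, which is 2.68-fold higher (1.42 ± 0.19). This was the largest difference of the 9 genes in the second set, and it ran against the direction of Txk and Sgk3 there.

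Sgk3, a kinase related to AKT that binds endosomes through a PX domain, stood at 6.28 and 6.29 in FR3 Klrg1-, against 6.91 and 7.27 in FR2 and 8.21 and 8.39 in FR1. It had the largest difference between FR2 and FR1, at -1.21 ± 0.15, which was 60.3% of its -2.01 ± 0.15 between FR3 Klrg1- and FR1. Sgk3 of the second set was at 5.06 in FR3 Klrg1+, against 5.66 and 5.85 in FR3 Klrg1- (-0.70 ± 0.18). The value of 5.06 was at percentile 19.5 of the genes on its array.

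**Figure D2:**
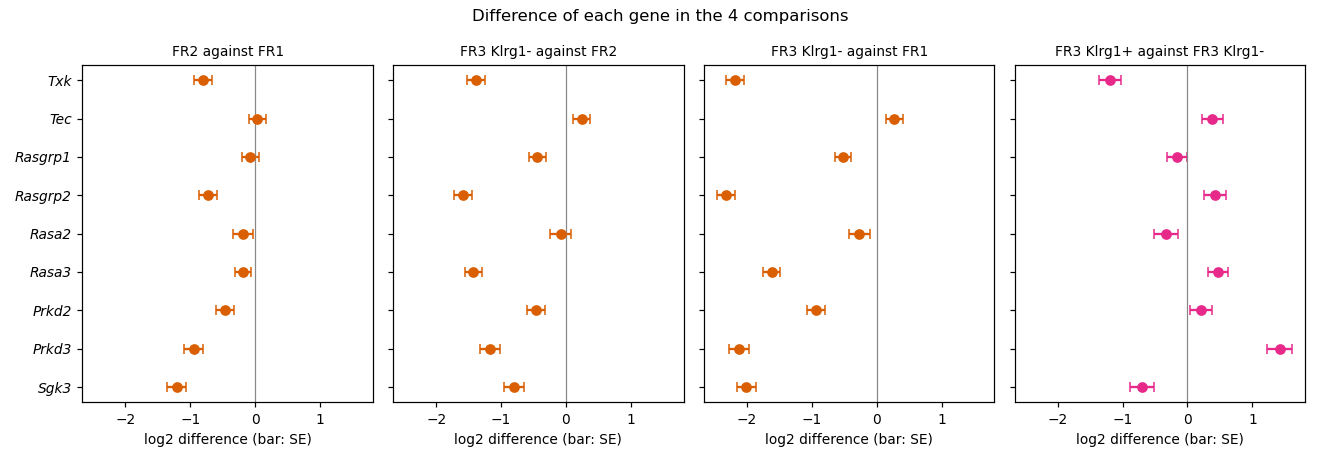
Log2 difference of each gene in the 4 comparisons (points) with the standard error of the fit (bars), the first group named minus the second. Sgk3 is farthest to the left for FR2 against FR1 (-1.21), Rasgrp2 for FR3 Klrg1- against FR2 (-1.59) and FR1 (-2.32), and in FR3 Klrg1+ against FR3 Klrg1- Txk (-1.20) and Prkd3 (1.42) lie at opposite ends.

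The counts that follow set the 9 genes beside all genes and are no test of them. In FR2 against FR1, 4 of the 9 were lower past an adjusted p of 0.05 in limma. Of all genes, 2.3% were lower and 1.96% higher. Fewer of the 9 were without FR1 replicate 2 or without FR2 replicate 1, which leaves 1 array in that group. In FR3 Klrg1- against FR1 7 were lower (3.79% of all genes, with 4.39% higher). Against FR2, 5 were lower in FR3 Klrg1- (1.94%, with 2.81% higher). In FR3 Klrg1+ against FR3 Klrg1-, 2 were lower (2.82% of all genes) and 1 was higher (2.14%). Fewer were lower there with the second set alone, without FR1 replicate 1 or 2, or without FR3 Klrg1- replicate 1 or 2. Counted by arrays that did not overlap, 7 of the 9 were lower in FR2 than in FR1 (23.1% of all genes), 8 in FR3 Klrg1- than in FR1 (23.6%) and 8 in FR3 Klrg1- than in FR2 (24.2%), and Tec was higher in the last 2 comparisons (25.3% and 24.7%). In FR3 Klrg1+ against FR3 Klrg1-, 4 were lower (36%) and 5 higher (36.5%) by that count. The genes were picked from such values, so nothing is read from these counts. The limma fit without the array set gave 0 of the 9 in FR2 against FR1 and 5 in FR3 Klrg1- against FR1. It gave 1 in FR3 Klrg1- against FR2 and 0 in FR3 Klrg1+ against FR3 Klrg1-. Of the 19938 genes, that fit called 52, 439, 55 and 22 in these comparisons, in that order. The differences of FR2 from FR1 in that fit were the same (-0.81 for Txk, -1.21 for Sgk3). Its differences of FR3 Klrg1- from FR1 included -2.83 for Rasgrp2 and -2.27 for Rasa3. Comparisons that share the FR1, FR2 or FR3 Klrg1- arrays are not independent of each other.

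The differences were not split evenly between the gates. Of the 6 genes that were lower in FR3 Klrg1- than in FR1 by more than 0.9, the part found already between FR2 and FR1 was 11.8% for Rasa3, 31.4% for Rasgrp2, 36.8% for Txk, 44.6% for Prkd3, 50.6% for Prkd2 and 60.3% for Sgk3. Leaving out each array of the first set in turn, the share was 6.41% to 17.2% for Rasa3, below the range of each of the other 5. It was 27.9% to 34.5% for Rasgrp2, 32.2% to 41.3% for Txk, 39.8% to 49% for Prkd3, 44.6% to 56.7% for Prkd2 and 51.5% to 69.2% for Sgk3, so neighbours among these 5 overlapped. Within FR3 Klrg1-, the first set was above the second by 1.29 for Rasa3, 1.06 for Prkd2, 1.02 for Rasgrp2, 0.82 for Rasgrp1, 0.55 for Prkd3 and 0.53 for Sgk3. Over all genes this gap had a median of -0.02, with 90% of genes between -1.01 and 1.02.

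Some pairs of the 9 genes had like patterns once each gene was centred within its set over the 9 grouped arrays. The closest were Rasgrp1 and Rasa2, which differed by a root mean square of 0.194 on the log2 scale, and Rasgrp1 and Prkd2 (0.195). Next came Rasgrp2 and Rasa3 (0.265), Txk and Sgk3 (0.274), Tec and Rasa2 (0.295) and Rasgrp2 and Prkd3 (0.315). The genes were chosen with their drops known, so likeness among those with large drops is not read as a result. Txk and Tec differed by 0.948, the most of any pair. Nearest genes were also sought outside the 9. That search left out predicted and clone-named genes, olfactory and vomeronasal genes, segments of immunoglobulins and T cell receptors, and small RNA genes. Names opening with C or D and a digit were left out too. Among the rest, the nearest gene to Rasgrp2 was Chil5 (0.141), to Rasa3 Stk38 (0.116) and to Prkd3 Satb1 (0.24). Treml2 was nearest to both Sgk3 (0.085) and Txk (0.247). For the other 4, the nearest were Arhgap18 for Tec (0.043), Chd3 for Rasgrp1 (0.037), Nudt21 for Rasa2 (0.047) and Slc3a1 for Prkd2 (0.037). A small value is reached more easily by genes with small differences, such as Tec and Rasa2.

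Other genes of the same pathways were tested over all genes in limma, in 11 lists with 106 measured genes outside the 9. In FR3 Klrg1- against FR1, 13 rose and 15 fell, which is 26.4% of the 106 against 8.19% of all genes, with a median difference of -0.01 against 0.02. With genes under percentile 40 left out, 1965 genes passed (1632 without this filter) and 35 pathway genes. All genes include those at low levels, where a change may not be seen. The lists were also chosen with earlier results known, so a gap between these shares is not read as a result about the pathways. Leaving out FR1 replicate 1 or 2 gave 16 or 17 calls, leaving out FR3 Klrg1- replicate 1 or 2 gave 18 or 14, and dropping the array set term gave 8. In FR3 Klrg1- against FR2, 7 rose and 7 fell (13.2% against 4.75% of all genes). Leaving out FR2 replicate 1 or 2 gave 7 or 9 calls, leaving out FR3 Klrg1- replicate 1 or 2 gave 9 or 7, and dropping the array set term gave 1. In FR2 against FR1, 2 rose and 2 fell (3.77% against 4.26%). There were 10 in all without FR3 Klrg1- replicate 3 or 4, and 0 in limma without the array set.

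Among 18 relatives of the same families, 3 passed in FR3 Klrg1- against FR1 (16.7%, against 8.19% of all genes). Bmx, Prkd1 and Rasgrp3 lay below percentile 25 of the genes on every grouped array and Btk at percentiles 8.5 to 25.1, where a change may not be seen. Btk (0.20 ± 0.15, adjusted p = 0.567) and Bmx (0.13 ± 0.12, 0.686), the Tec kinases of B cells and of myeloid and endothelial cells, did not. Of 6 other Ras exchange factors, Rasgrp4, known from mast cells, fell by 0.52 ± 0.13 (adjusted p = 0.0191), while Rasgrp3 (-0.11), Sos1 (-0.22), Sos2 (0.37), Rasgrf1 (0.02) and Rasgrf2 (-0.27) did not pass. Of 7 other Ras GTPase activating proteins, Nf1, the neurofibromatosis gene, rose by 0.54 ± 0.14 (0.0264) and Rasal1 fell by 0.49 ± 0.13 (0.0293), while Rasa1 (0.23), Rasa4 (-0.04), Rasal2 (0.08), Rasal3 (-0.35) and Dab2ip (0.45) did not pass. Prkd1 (-0.04 ± 0.13), Sgk1 (0.36 ± 0.14) and Sgk2 (-0.04 ± 0.14) did not pass either.

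Downstream and beside them, the GTPase gene Rras2 fell by 1.58 ± 0.14 in FR3 Klrg1- against FR1, the most of the tested pathway genes (adjusted p = 2.31e-06). Its arrays read 8.60 and 8.58 in FR3 Klrg1-, 9.18 and 9.34 in FR2 and 10.12 and 10.23 in FR1, with no overlap. It was lower already in FR2 than in FR1 (-0.91 ± 0.14, 0.00124). The other member of that list of 10 that passed was the scaffold gene Ksr1, which rose by 0.54 ± 0.13 (0.0132).

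Of 12 genes of diacylglycerol kinases and protein kinase C, 1 rose and 4 fell in FR3 Klrg1- against FR1. Diacylglycerol kinases remove the lipid that recruits Rasgrp1, and Dgkd fell by 1.03 ± 0.13 (7.33e-05) and Dgke fell by 0.74 ± 0.19 (0.0222). Prkcq, the protein kinase C of the T cell synapse, fell by 0.91 ± 0.13 (0.000263), with 10.83 and 10.79 in FR3 Klrg1-, against 11.69 and 11.76 in FR1. Prkca rose by 0.76 ± 0.13 (0.00146). Of 25 genes of proximal T cell receptor signalling, 5 rose and 1 fell. The adaptor gene Grap2 fell by 1.24 ± 0.14 (2.07e-05), and Sla, which dampens the receptor, rose by 0.81 ± 0.12 (0.000398), the phosphatase gene Ptpn22 by 0.70 ± 0.15 (0.00664) and the kinase gene Zap70 by 0.65 ± 0.13 (0.00349).

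Of 10 feedback inhibitors of the ERK pathway, 3 rose and 1 fell in FR3 Klrg1- against FR1. Spry1 rose by 1.23 ± 0.13 (1.92e-05), and the phosphatase genes Dusp4 and Dusp6 by 0.97 ± 0.14 (0.000221) and 0.63 ± 0.15 (0.0141), while Dusp2 fell by 0.48 ± 0.13 (0.0289). Dusp4 read 11.13 and 11.02 in FR3 Klrg1-, against 9.98 and 10.24 in FR1. The direction of Dusp4 and Dusp6 turned in the fit without the array set (-0.81 and -0.37). That fit takes the mean of FR3 Klrg1- over both sets. In FR3 Klrg1- of the second set, Dusp4 read 7.43 and 7.61 and Dusp6 7.71 and 7.91. Against FR2, 4 of the 10 rose, namely Dusp4 (1.07 ± 0.14, 0.000279), Dusp6 (1.03 ± 0.15, 0.000795), Spred1 (0.86 ± 0.15, 0.00254) and Spry1 (0.74 ± 0.13, 0.00421), of which Dusp4 (-0.71) and Spry1 (-0.30) turned without the array set.

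Of 18 genes of Rap1 and its regulators, 2 rose and 3 fell in FR3 Klrg1- against FR1. Rapgef5, an exchange factor, rose by 1.14 ± 0.17 (0.000337), and it was higher in FR2 than in FR1 too (1.02 ± 0.17, 0.00242). Rap1gap2, which inactivates Rap1, was highest in FR2, at 7.31 and 7.37, against 5.84 and 5.88 in FR3 Klrg1- and 6.63 and 6.62 in FR1. It rose in FR2 against FR1 by 0.72 ± 0.12 (0.00347) and fell by 1.48 ± 0.12 in FR3 Klrg1- against FR2 (5.93e-06). Of 10 genes of phosphoinositide 3-kinases and phosphatases 3 fell, namely Pik3r5 (by 1.19 ± 0.13, 2.78e-05), Pik3cd (by 0.80 ± 0.14, 0.00154) and Pik3cb (by 0.59 ± 0.14, 0.0116).

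**Figure D3:**
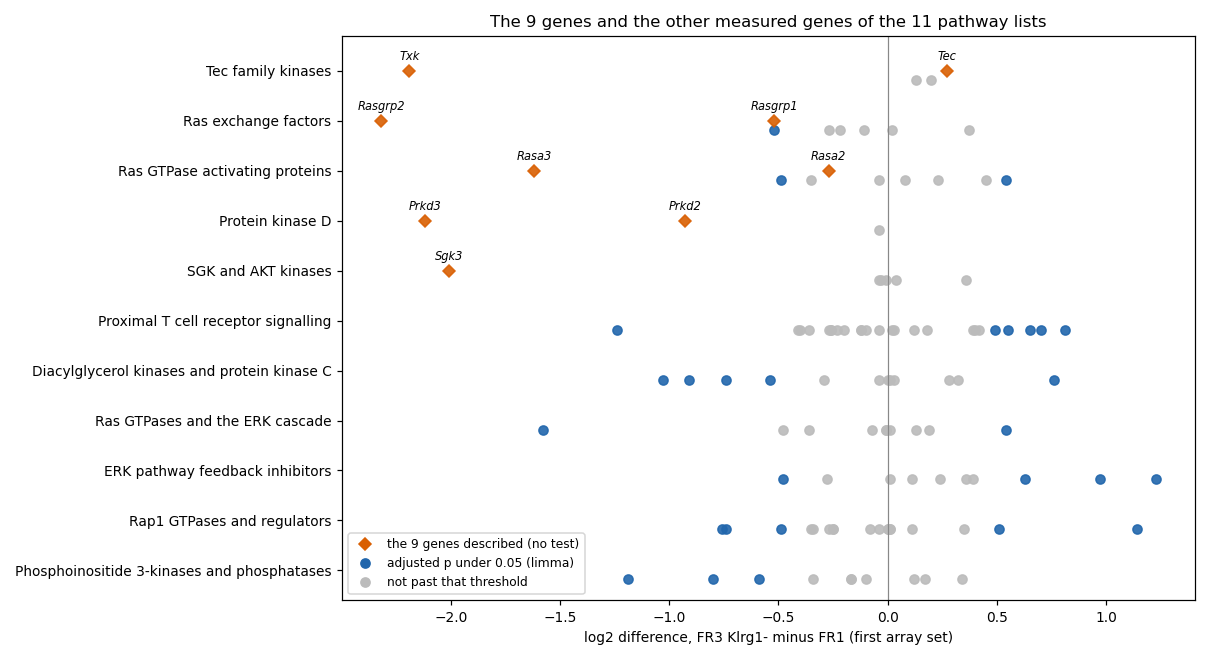
Log2 difference of FR3 Klrg1- minus FR1 within the first array set for the 9 genes (diamonds, not tested) and the other 106 measured genes of the 11 lists (circles, blue where the adjusted p of limma was under 0.05), with a row per list. Among the circles Rras2 is farthest to the left (-1.58) and Spry1 farthest to the right (1.23).

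In the second set, FR3 Klrg1+ against FR3 Klrg1- rests on 1 array against 2, and its spread is borrowed from the other groups. Of the 106 genes 2 rose and 4 fell (5.66% against 4.96% of all genes, and 0 of the 106 in limma without the array set). Btk fell by 0.89 ± 0.18 (0.0127), at 4.29 in FR3 Klrg1+ against 5.28 and 5.08 in FR3 Klrg1-, while Nf1 fell by 0.78 ± 0.17 (0.0183). Btk lay between percentiles 8.5 and 25.1 of the genes on the grouped arrays and was left out by the filter on dim genes, so its size is uncertain. Grap2 (by 0.73 ± 0.17, 0.0216) and Spred1 (by 0.77 ± 0.18, 0.0229) fell too. The phosphatase gene Dusp5 rose by 0.76 ± 0.18 (0.0258), a direction that turned without the array set (-0.54), and Rap1b rose by 0.58 ± 0.16 (0.0455), which did not pass in the second set alone (0.164).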

How the data were processed

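RNA of sorted spleen cells (20 to 50 ng, per the labels' protocols) was amplified and measured on the Mouse Gene ST 1.0 array of Affymetrix. The authors deposited log2 intensities made with RMA, per the submitters' processing notes. The version of RMA, and whether all arrays were normalized together, are not given in the sources used here. Array medians lay between 6.15 and 6.31. Of 35556 probe sets, 21789 had 1 symbol, 1621 several and 12146 none in the probe table. The brightest probe set stood for a gene, which left 19938 genes, with no intensity filter. Arrays were grouped by their labels. The labels call arrays of a group biological replicates, and their number limits the precision.

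Differences came from 1 limma 3.58.1 fit in R 4.3.3 over the 9 grouped arrays, with moderated variances, the array set as a fixed term and p-values adjusted after Benjamini and Hochberg over 19938 genes, with a threshold of 0.05. FR3 Klrg1- is the only group in both sets, so each difference comes from the set that holds both groups. The code of the fit was run on simulated data with shifts added to FR3 Klrg1-. Its noise was drawn from the spread of the same fit, so the run cannot show whether the model suits these arrays. The 9 genes, the array sets and the gene lists were chosen with earlier results of these data known. Named pathway genes were up to 4 per list and comparison among those past the threshold, by size of the difference, and the families of the 9 genes. Promoters and the order of genes come from RefSeq (GRCm38.p6). Alternatives were a fit without the array set, each set alone, an intensity trend, leaving out genes under percentile 40 of the mean, quantile normalization, the mean of a gene's probe sets, the replicate number as a block, and leaving out each replicate.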

Additional observations from a re-analysis of the deposited data

Results flagged for a closer look

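Among 52 genes looked at in FR3 Klrg1-, the only group of 4 arrays, Prkcq had an array far from the others: replicate 4 was at 10.58, against 10.83, 10.79 and 10.83 in replicates 1 to 3. Chance flags about 1 in 20 such groups. Replicates 1 and 2 lie in the first array set and replicates 3 and 4 in the second, so the 4 arrays are not of 1 kind.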

How the results depend on the processing

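With 2 arrays per group in the first set and 1 against 2 in the second, the counts moved with the choices, and by the largest ratio without the array set. Without it, limma called 52 genes in FR2 against FR1 (850 with it) and 439 in FR3 Klrg1- against FR1 (1632). That fit called 55 in FR3 Klrg1- against FR2 (948) and 22 in FR3 Klrg1+ against FR3 Klrg1- (989). Of the 106 pathway genes 0, 8, 1 and 0 were called (4, 28, 14 and 6 with the array set). At an unadjusted p under 0.05 in limma there were 6, 35, 23 and 11 of them. The share of all genes at that p was not counted, so nothing is read from these numbers. These directions turned without the array set: Dusp4 (-0.81 against FR1, -0.71 against FR2), Dusp6 (-0.37 against FR1), Spry1 (-0.30 against FR2) and Dusp5 (-0.54). That fit takes FR3 Klrg1- as the mean of its 4 arrays, and these genes were lower on its second set. Dusp4 read 11.13 and 11.02 in the first set and 7.43 and 7.61 in the second, and Dusp6 9.71 and 9.90 against 7.71 and 7.91. Spry1 read 9.12 and 9.21 against 7.12 and 7.05, and Dusp5 10.07 and 9.96 against 7.29 and 7.56. The cause of this gap between the sets was not tested. FR1 and FR2 lie wholly in the first set, and their differences were the same without the array set (-0.81 for Txk, -1.21 for Sgk3). What changed for FR2 against FR1 was the estimated spread, which then took in the gap between the sets within FR3 Klrg1-. For FR2 against FR1, the first set alone called 1331 genes and 10 pathway genes, leaving out dim genes 1401 and 11, the intensity trend 11 pathway genes and quantile normalization 7 (5 higher and 2 lower, against 2 and 2). Quantile normalization gave 418 genes higher and 318 lower in FR2 against FR1 (391 and 459 as deposited).

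The replicate number as a block, in the first set alone, called 1669 genes and 12 pathway genes in FR2 against FR1, and 1586 genes in FR3 Klrg1- against FR2. With this replicate block, all named pathway calls of the first set held. Without the array set, 15 of them in FR3 Klrg1- against FR1 no longer passed, 2 turned and 8 held. In FR3 Klrg1- against FR2, 11 no longer passed, 2 turned and 1 held, and in FR2 against FR1 4 no longer passed. Leaving out 1 first-set array of a compared group also lost many named calls of FR3 Klrg1- against FR1 or FR2. In the other comparisons, leaving out 1 array lost some. Deviations of equal numbers correlated at 0.18, 0.14 and 0.02 between the groups, so the numbers are not taken as pairs. No paired analysis was possible for FR3 Klrg1+ because it has 1 array.

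Leaving out each replicate in turn gave 253 to 1331 genes and 3 to 10 pathway genes in FR2 against FR1, 910 to 2063 and 14 to 34 in FR3 Klrg1- against FR1, 302 to 1318 and 7 to 16 in FR3 Klrg1- against FR2, and 721 to 1553 and 5 to 7 in FR3 Klrg1+ against FR3 Klrg1-.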

Other observations

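The array in no group, titled FR3 with the marker text of FR1, lies in the second set. On it Klrg1 was at 12.41, against 12.33 on the FR3 Klrg1+ array and 7.27 and 7.47 on the FR3 Klrg1- arrays of that set. Prkd3 was at 7.30 on it, against 7.52 in FR3 Klrg1+ and 6.09 and 6.10 in FR3 Klrg1-. Tec was at 8.24, Rasgrp2 at 7.39 and Rasa3 at 8.34 there, each above both FR3 Klrg1- arrays, while Txk was at 7.70 and Sgk3 at 5.22, each below them. Rasgrp1 (9.73) and Prkd2 (8.11) lay between those 2 arrays, and Rasa2 (8.71) below them. No group was drawn from these values.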
